A study of Mus musculus with 22 samples.

Results

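Translation initiation and elongation factors were followed in sorted mouse pancreatic β-cells. The genes were chosen by name: symbols of the families Eif1 to Eif6, Eef1 and Eef2, with Eef2k, but without the Eif2ak kinases, Eif4enif1 and rows named as pseudogenes. A gene was kept if it had at least 10 counts in at least 5 libraries. This rule found 83 names among the 52327 genes of the table and kept 62 of them. Of the other 21, 16 had no count in any library, and Eef1a2, Eif1ad4, Eif4a3l1, Eif4a3l2 and Eif4ebp3 had at most 3, 4, 1, 5 and 6 counts in a library. All 62 kept genes also passed the filter on low counts that was applied to the whole table before testing.

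Translation of most messages starts when the eIF4F complex binds the cap at the 5′ end of the mRNA and the small ribosomal subunit, loaded with eIF1, eIF1A, eIF2, eIF3 and eIF5, scans to the start codon. The GTPase eIF2 brings the initiator tRNA and is recharged by eIF2B, and phosphorylation of its α subunit slows initiation. Each elongation cycle then uses eEF1A to deliver a charged tRNA and eEF2 to move the ribosome by a codon. In β-cells this machinery serves the heavy production of proinsulin, and glucose and amino acids are known to act on it through eIF2, eIF2B and the kinase complex mTORC1.

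The 22 libraries came from 22 male mice, whose β-cells were collected by flow sorting, 1 library per mouse. Every mouse, controls included, had the genotype GluDTR+, SstDTR htz, PpyDTR htz on a mixed background, so that the diphtheria toxin receptor marks the glucagon, somatostatin and pancreatic polypeptide cells. The groups were refed mice given diphtheria toxin (DT; n = 6), fasted DT mice (n = 6), refed control mice (n = 5) and fasted control mice (n = 5). All were 3 months old and were taken 1 month after the ablation. Fasted mice had been without food for 8 h, and refed mice had the same fast followed by 2 h of feeding. DT treatment is meant to leave islets made of β-cells, and the design asks how these cells respond to fasting and feeding without their neighbours. Whether controls were injected is not stated in the labels. Refed mice carry the numbers 12 to 22 and fasted mice 1 to 11, and the labels name no batch, so any difference in handling between these sets and the feeding state cannot be told apart.

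Total counts per library ran from 16584117 to 24988880. All 10 β-cell markers were detected, and Ins1 and Ins2 together took 40.3% to 51.1% of the counts in 21 libraries. Refed DT mouse 13 stood apart with 69.4%, the lowest TMM scaling factor (0.566) and 0.286% of its counts in the 62 genes, against 0.454% to 0.609% in the other libraries. Refed DT mouse 20 had 1.59% mitochondrial counts, the highest share of all. Gcg averaged 4.62 ± 10.5 CPM in refed DT mice and 0.264 ± 0.297 CPM in fasted DT mice, against 130.4 ± 50.6 CPM in refed control mice and 87.6 ± 97.2 CPM in fasted control mice (SD). Sst was at most 0.494 CPM in refed DT mice and 4.71 CPM in fasted DT mice. In control mice it was at least 29.8 CPM after refeeding and 13.4 CPM after fasting. Ppy overlapped, with 3.46 to 32.6 CPM in refed DT mice and 3.89 to 126 CPM in refed control mice. In fasted mice it had 1.04 to 10.6 CPM with DT and 5.41 to 46.7 CPM in controls. The 6 α-cell markers together, all of them detected, did not follow Gcg. Their sum was 411 to 759 CPM in refed DT mice and 313 to 661 CPM in fasted DT mice, against 346 to 744 CPM in refed control mice and 342 to 775 CPM in fasted control mice. Most of it was Ttr, with group medians of 361 to 624 CPM. The 12 acinar markers, all of them detected, summed to 59.3 to 30358 CPM in refed DT mice, 88.7 to 17199 CPM in fasted DT mice, 1145 to 19751 CPM in refed control mice and 111 to 12074 CPM in fasted control mice. Levels are CPM, counts scaled to the TMM-adjusted library size, and in these pooled cells fewer expressing cells and less RNA per cell cannot be told apart.

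Per kilobase of the longest coding transcript, which was known for 59 of the genes, the levels spanned 289-fold. The start-site factor Eif1 was first with 336 CPM per kb over all libraries, followed by the elongation factor Eef1a1 with 218, the hypusine-carrying factor Eif5a with 205, the translocase Eef2 with 114, the cap helicase Eif4a1 with 82.4 and the scaffold-like Eif4g2 with 80.8. The order, which depends on the transcript length used for each gene, shifted with feeding. Eif1 had 418 ± 94.7 CPM per kb in refed DT mice and 262 ± 10.6 CPM per kb in fasted DT mice. In control mice it had 373 ± 41.7 CPM per kb after refeeding and 292 ± 20.9 CPM per kb after fasting. Eef1a1 ran the other way, with 194 ± 42.1 CPM per kb in refed DT mice and 244 ± 6.6 CPM per kb in fasted DT mice, and with 185 ± 9.82 CPM per kb in refed control mice and 250 ± 11.4 CPM per kb in fasted control mice (SD). Eif5a stood above Eef1a1 in refed mice and below it in fasted mice, with 245 ± 26.7 CPM per kb in refed DT mice and 175 ± 35.9 in fasted DT mice, and 249 ± 22.9 in refed control mice and 150.0 ± 22.9 in fasted control mice. On this scale Eif4a1 and Eif4g2 changed places, with lengths of 1774 and 7995 bases. In CPM, without division by length, Eif4g2 was higher, averaging 646 against 146 for Eif4a1 over all libraries. A shorter length for Eif4g2 would raise its value per kb, so their order holds only for the lengths used. Eif4a1 was above Eif4g2 in 6 of 6 refed DT mice, with 108 ± 23.1 against 81.7 ± 24.3 CPM per kb, and in 1 of 6 fasted DT mice, with 62.9 ± 9.86 against 76.0 ± 5.33 CPM per kb. In control mice it was above in 5 of 5 after refeeding, with 104 ± 12.8 against 85.8 ± 11.9 CPM per kb, and in 0 of 5 after fasting, with 53.6 ± 8.44 against 80.7 ± 6.12 CPM per kb. The lowest of the 59 was the eIF3j copy Eif3j2, with 1.16 CPM per kb.

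Refeeding moved the translation factors in both treatment groups, mostly upward. With the DT and control responses averaged, 38 of the 62 genes differed between refed and fasted mice, 31 higher and 7 lower (edgeR quasi-likelihood test, Benjamini-Hochberg adjusted p under 0.05). Of all 14064 genes tested, 38.9% were called in this comparison, 17.2% higher and 21.7% lower, so the share of higher calls among the translation factors (50%) was above that background and the share of lower calls (11.3%) was below it. Their median log2 fold change was 0.32, against -0.06 over all genes tested, and 47 of the 62 were above 0. Without Eif1ad10, which reached 10 counts in 8 refed libraries and 1 fasted library and so passed the count rule through the refed mice, 30 of 61 were higher and 7 lower. With the acinar markers as a covariate 36 were called, 29 higher and 7 lower, and without refed DT mouse 13 the count was 43. Calls over all genes moved the same way, from 5470 to 4963 with the covariate and to 6286 without mouse 13. In DT mice alone, 23 were higher and 4 lower after refeeding, against a background of 24.4% called (10.8% higher, 13.5% lower). In control mice alone, 21 were higher and 5 lower, against 23.3% called (10.9% higher, 12.3% lower). Both responses were fitted with the same spread estimate but share no mice.

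**Figure D1:**
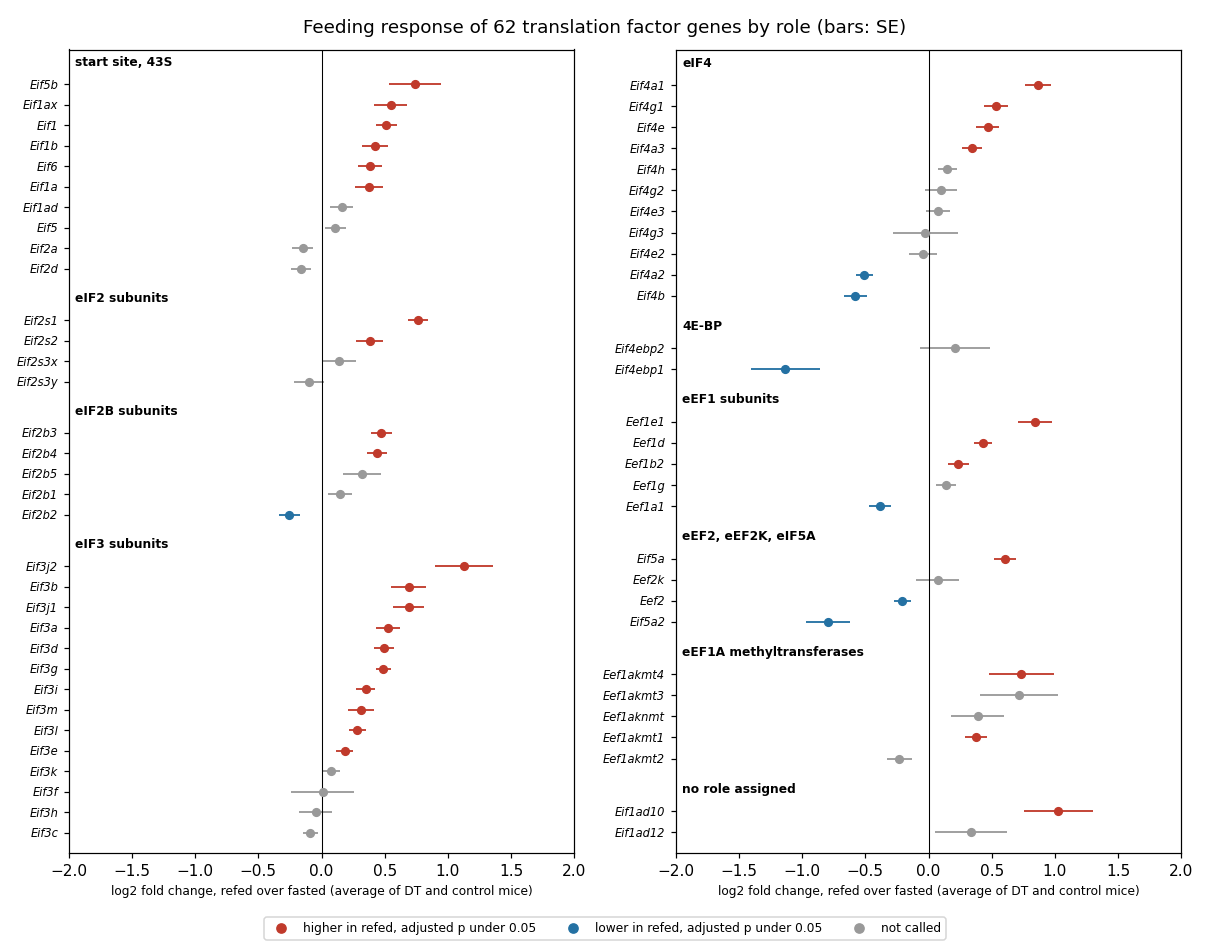
Log2 fold change of each of the 62 genes in refed over fasted mice (average of DT and control mice), grouped by role, with bars for the standard error. Red and blue points are genes higher and lower in refed mice at an adjusted p under 0.05, and most red points lie in the start-site, eIF2, eIF3 and eIF4 groups, with Eif3j2 at 1.13 on the right and Eif4ebp1 at -1.13 on the left.

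CPM ranges were compared without a test, on levels that use the same TMM scaling. In DT mice, 8 of the 62 genes (12.9%) had refed and fasted groups that did not overlap. This was near the 10.1% of all genes tested that separated. In control mice 28 of the 62 (45.2%) separated, against 21.5% of all genes tested. The DT groups are larger by a mouse each and hold mouse 13, so the counts of the DT and control groups are not directly comparable.

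Promoter sequence was a feature that the choice of genes did not use. RefSeq promoters (GRCm38.p6) of 250 bases before to 50 bases after the annotated start were available for 46 of the 62 genes and were searched on both strands for 3 motifs. The E-box CACGTG, known as a site for MYC, USF and TFE factors, was present in 14 genes (30.4%). It was present in 11.6% of tested genes with a promoter and in 8.09% of all 27025 genes with a promoter. It occurred in 7 of 22 genes higher after refeeding (31.8%), in 2 of 6 lower after refeeding (33.3%) and in 5 of 18 not called (27.8%). Its share was thus above the background in each of the 3 classes. The cAMP response element TGACGTCA was found in 1 gene (Eef2, 2.17%), against 3.72% of tested genes and 2.03% of all genes with a promoter. The C/EBP-ATF element TGATGNAAN was found in 2 (Eef2k and Eif2s3x, 4.35%), against 2.73% and 4.50%. No motif overlapped another in these promoters, and a gene with several annotated starts was counted if any of them held the motif. A match describes letters only, and a missing match says nothing about the factor.

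The following promoters belong to the genes that were called in the averaged feeding comparison and carry CACGTG between 120 bases before and 15 bases into the annotated start. They show how the same 6 letters stand in genes that rose and in genes that fell. Each line gives those 135 bases 5′ to 3′ on the gene's strand, with capitals marking CACGTG and, in Eef2, also TGACGTCA. Eif4g1 (chr16:20672607-20672741, plus strand), Eif4e (chr3:138527148-138527282, plus strand), Eif5a (chr11:69921372-69921506, minus strand), Eif1b (chr9:120492486-120492620, plus strand) and Eef1akmt4 (chr16:20611481-20611615, plus strand) were higher after refeeding. Eef2 (chr10:81176511-81176645, plus strand) and Eif5a2 (chr3:28781157-28781291, plus strand) were lower.
Eif4g1: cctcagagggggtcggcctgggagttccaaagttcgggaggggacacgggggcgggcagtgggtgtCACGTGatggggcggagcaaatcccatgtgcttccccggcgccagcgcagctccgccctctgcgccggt
Eif4e: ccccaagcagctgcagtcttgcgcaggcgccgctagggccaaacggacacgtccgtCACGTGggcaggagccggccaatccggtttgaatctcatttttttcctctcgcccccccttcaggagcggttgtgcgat
Eif5a: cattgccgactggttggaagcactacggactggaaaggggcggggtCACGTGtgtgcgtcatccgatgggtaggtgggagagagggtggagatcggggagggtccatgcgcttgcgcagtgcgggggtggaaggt
Eif1b: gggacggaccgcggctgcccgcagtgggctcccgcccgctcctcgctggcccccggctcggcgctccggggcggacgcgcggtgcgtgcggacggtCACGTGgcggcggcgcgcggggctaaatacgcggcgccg
Eef1akmt4: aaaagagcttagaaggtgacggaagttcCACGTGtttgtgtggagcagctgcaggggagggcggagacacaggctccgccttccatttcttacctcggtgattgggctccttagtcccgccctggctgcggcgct
Eef2: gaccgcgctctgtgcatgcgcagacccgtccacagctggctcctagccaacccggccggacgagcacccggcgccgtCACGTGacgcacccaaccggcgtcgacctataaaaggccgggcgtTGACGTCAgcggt
Eif5a2: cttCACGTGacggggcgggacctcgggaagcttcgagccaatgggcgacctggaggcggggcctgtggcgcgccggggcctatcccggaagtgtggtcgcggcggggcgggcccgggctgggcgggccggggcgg
The motif begins 54 bases before the start in Eif4g1, 64 in Eif4e, 74 in Eif5a, 24 in Eif1b, 92 in Eef1akmt4, 43 in Eef2 and 117 in Eif5a2. Eif4a1 and Eif3a, both higher after refeeding, hold it 189 bases before and 22 bases after the start, outside the stretch shown.

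Among the factors that assemble the scanning ribosome and find the start codon, 6 of 10 (60%) rose with refeeding and none fell. Over all genes tested the shares were 17.2% higher and 21.7% lower. Eif1 and Eif1b guard the accuracy of start codon choice, Eif1a and Eif1ax encode eIF1A, Eif5b joins the large subunit, and Eif6 keeps free large subunits apart. Eif1 had lowest, median and highest levels of 444, 516 and 796 CPM in refed DT mice, against 325, 347 and 364 CPM in fasted DT mice. Control mice had 496, 509.6, 468, 419 and 569 CPM after refeeding, against 397, 361, 356, 392 and 424 CPM after fasting. The DT groups did not overlap, and mouse 13 was the highest, while a single refed control mouse lay inside the fasted control range. The averaged log2 fold change of Eif1 was 0.51 ± 0.08 (SE), with an adjusted p of 4.28e-05. The others that rose were Eif5b (0.74), Eif1ax (0.55), Eif1b (0.42), Eif6 (0.38) and Eif1a (0.38), as averaged log2 fold changes. Eif5, the GTPase activator of eIF2, had 0.11 and was not called, nor were Eif1ad, Eif2a and Eif2d.

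Both separately encoded autosomal subunits of eIF2 rose. Eif2s1 encodes the α subunit, on which stress kinases act, and had the smallest p of all 62 genes. Its lowest, median and highest levels were 52.6, 67.4 and 73.6 CPM in refed DT mice, against 32.4, 37.0 and 43.5 CPM in fasted DT mice. The levels in refed control mice were 60.3, 75.4, 51.9, 57.1 and 55.2 CPM, against 37.8, 35.9, 33.8, 35.6 and 38.5 CPM in fasted control mice. All 11 refed mice were above all 11 fasted mice. Its averaged log2 fold change was 0.76 ± 0.08 (adjusted p = 2.94e-07). Eif2s2, the β subunit, changed by 0.38 (adjusted p = 0.00692). The γ subunit is encoded by the X and Y copies Eif2s3x (0.14) and Eif2s3y (-0.10), neither of which was called. These copies are nearly identical, and how reads shared between them were counted is not given in the sources used here.

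Of the 5 subunits of eIF2B, the exchange factor that recharges eIF2, Eif2b3 and Eif2b4 rose, with averaged log2 fold changes of 0.47 ± 0.09 and 0.44 ± 0.08 (adjusted p = 0.000155 and 0.000237). Eif2b2 fell, with -0.26 ± 0.08 (adjusted p = 0.0182), and this call was lost in 2 of 7 other settings and in 2 of the 22 fits that leave out 1 mouse. Eif2b1 and the catalytic subunit Eif2b5 had 0.15 and 0.32 and were not called. Called subunits of this complex thus went in both directions, 40% higher and 20% lower, against 17.2% and 21.7% of all genes tested.

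The eIF3 complex holds the scanning ribosome together, and 10 of its 14 genes (71.4%) rose while none fell. The shares over all genes tested were 17.2% higher and 21.7% lower. Eif3g, an RNA-binding subunit, separated the feeding states completely. It had 79.4, 92.5 and 102 CPM as lowest, median and highest in refed DT mice, against 58.9, 64.4 and 73.5 CPM in fasted DT mice. The refed control mice had 79.6, 103, 89.2, 87.3 and 85.8 CPM, against 68.0, 63.3, 56.4, 60.8 and 67.4 CPM in fasted control mice. No refed mouse of either treatment reached down to a fasted one, and the averaged log2 fold change was 0.49 ± 0.06 (adjusted p = 1.69e-06). Eif3d, which can itself contact the cap of some messages, had 45.6, 59.4 and 63.6 CPM in refed DT mice, against 35.7, 41.6 and 52.2 CPM in fasted DT mice. In refed control mice it had 47.4, 64.9, 53.1, 53.7 and 53.5 CPM, against 38.5, 38.0, 30.6, 39.9 and 39.7 CPM in fasted control mice. Control mice separated, and in DT mice the lowest refed value, that of mouse 13, lay within the fasted range. Eif3d changed by 0.49 ± 0.08 (adjusted p = 4.79e-05).

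The remaining eIF3 genes that rose were Eif3j2 (1.13), Eif3b (0.69), Eif3j1 (0.69), Eif3a (0.52), Eif3i (0.35), Eif3m (0.31), Eif3l (0.28) and Eif3e (0.18), again as averaged log2 fold changes. The Eif3e call (adjusted p = 0.0331) was lost in 9 of the 22 fits that leave out 1 mouse and in 1 of 7 other settings. The core subunits Eif3c (-0.09), Eif3f (0.01), Eif3h (-0.05) and Eif3k (0.08) were not called. The paralogs Eif3j1 and Eif3j2 share sequence, and the split of their reads is uncertain.

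The genes of the cap-binding eIF4 group split, with 4 of 11 higher (36.4%) and 2 lower (18.2%) after refeeding. Of all genes tested 17.2% were higher and 21.7% lower, so the share of lower calls was near the background. The helicase Eif4a1, which unwinds the 5′ end of the message, rose. It had 117, 202 and 227 CPM as lowest, median and highest in refed DT mice, against 91.7, 111 and 131 CPM in fasted DT mice. The refed control mice had 162, 222, 176, 179 and 179 CPM, against 92.1, 119, 79.8, 86.8 and 97.7 CPM in fasted control mice. Apart from refed DT mouse 13, every refed mouse was above every fasted one, and the averaged log2 fold change was 0.87 ± 0.11 (adjusted p = 1.69e-06). Its close paralog Eif4a2 went the other way. Eif4a2 had 99.8, 127 and 143 CPM in refed DT mice, against 167, 184 and 199 CPM in fasted DT mice. It had 139.5, 129.9, 138, 138 and 130.1 CPM in refed control mice, against 172, 149, 207, 193 and 217 CPM in fasted control mice. Neither pair of groups overlapped, and the log2 fold change was -0.51 ± 0.07 (adjusted p = 5.80e-06).

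Eif4b, a cofactor that stimulates the helicase, also fell. Its levels were 40.8, 58.8 and 63.7 CPM in refed DT mice, against 59.5, 81.2 and 97.2 CPM in fasted DT mice. Refed control mice had 52.4, 59.5, 53.4, 62.5 and 45.8 CPM, against 91.2, 72.5, 89.8, 78.7 and 97.9 CPM in fasted control mice. Control mice separated and DT mice overlapped at the lowest fasted value, and the averaged log2 fold change was -0.58 ± 0.09 (adjusted p = 2.44e-05). The cap-binding protein Eif4e rose. It had 43.6, 78.0 and 85.2 CPM in refed DT mice, against 48.4, 57.5 and 67.9 CPM in fasted DT mice. Among refed control mice the levels were 72.5, 85.3, 83.4, 83.0 and 85.6 CPM, against 49.0, 63.0, 51.4, 56.2 and 52.5 CPM in fasted control mice. Mouse 13 was the only refed mouse below any fasted mouse, and Eif4e changed by 0.47 ± 0.09 (adjusted p = 0.000357). The scaffold Eif4g1 (0.53) and Eif4a3 (0.35), a helicase of the exon junction complex, rose as well. Eif4g2, Eif4g3, Eif4e2, Eif4e3 and Eif4h lay between -0.05 and 0.15 and were not called.

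**Figure D2:**
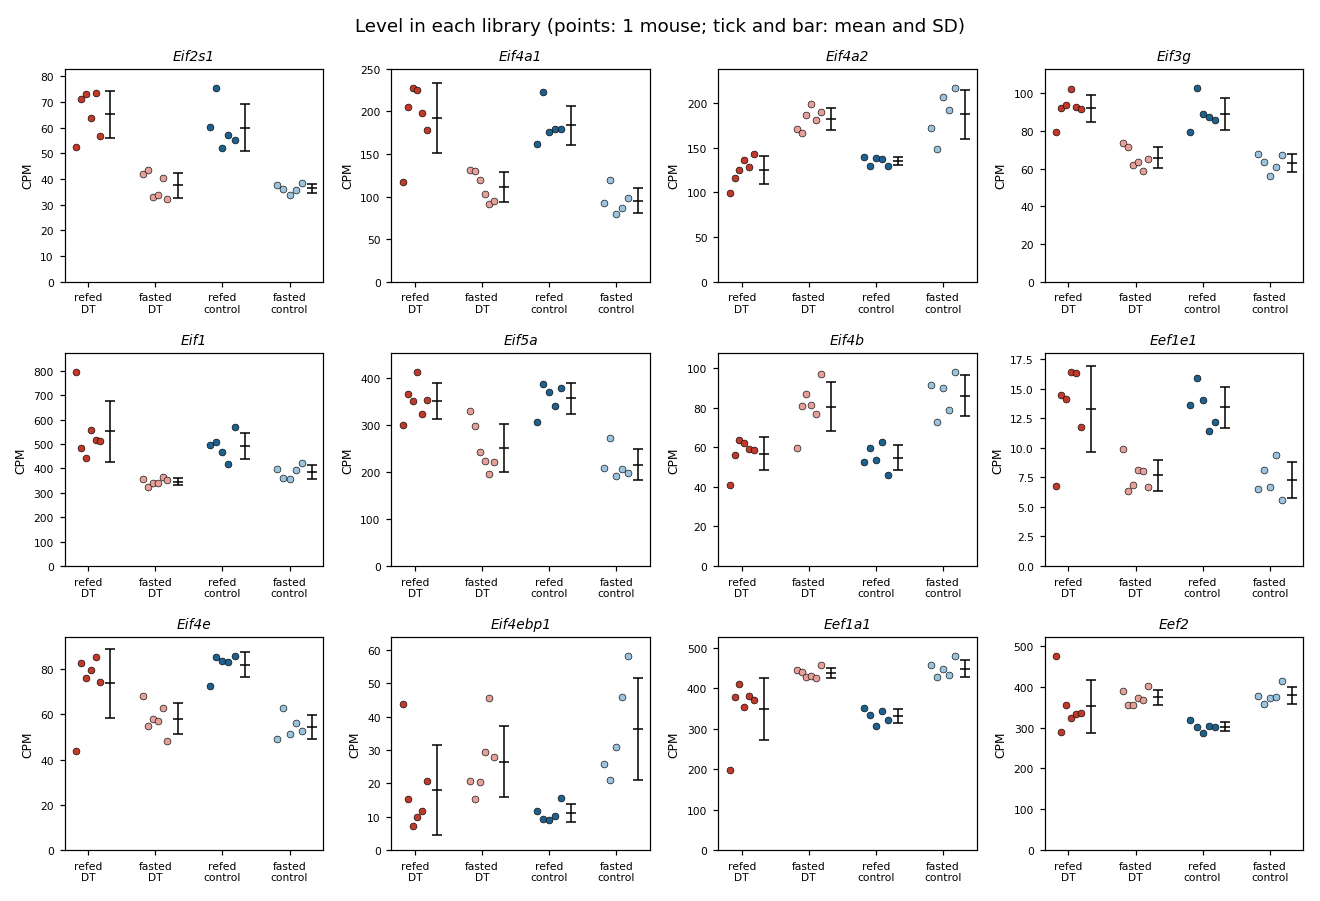
CPM of 12 genes in each library, with 1 point per mouse and a tick and bar for the mean and SD of each group. Refed groups sit above fasted groups for genes such as Eif2s1 and Eif3g and below them for Eif4a2, Eif4b and Eef1a1, and the single high or low point in refed DT mice for Eif1, Eif4e, Eef1a1 and Eef2 is mouse 13.

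The related pairs that moved in opposite directions can be read as ratios within a library, which do not depend on library size. These ratios were chosen after their values had been seen and are given as a description. The ratio of Eif4a1 to Eif4a2 counts had lowest, median and highest values of 1.17, 1.59 and 1.81 in refed DT mice, against 0.498, 0.578 and 0.782 in fasted DT mice. In control mice it was 1.16, 1.30 and 1.71 after refeeding, against 0.386, 0.450 and 0.801 after fasting. Every refed library therefore held more Eif4a1 than Eif4a2 counts, and every fasted library held fewer. The ratio of Eif5a to Eif5a2 was 41.7, 89.4 and 120 in refed DT mice, against 15.1, 25 and 47.6 in fasted DT mice. It was 33.3, 41.2 and 52.4 in refed control mice, against 13.7, 17.2 and 28.6 in fasted control mice. The feeding states overlapped for this ratio in DT mice and not in control mice.

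**Figure D3:**
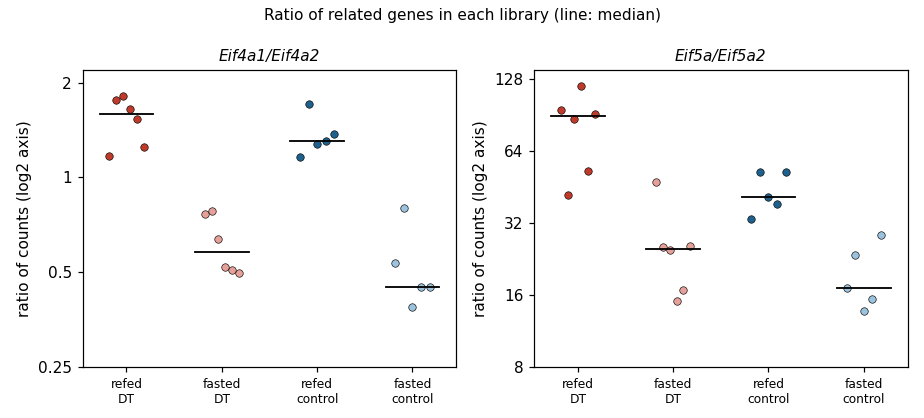
Ratio of counts of Eif4a1 to Eif4a2 (left) and of Eif5a to Eif5a2 (right) in each library on a log2 axis, with 1 point per mouse and a line at the group median. For Eif4a1 over Eif4a2, all refed mice lie above 1 and all fasted mice below it.

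Eif4ebp1 encodes 4E-BP1, the repressor that holds eIF4E away from eIF4G until mTORC1 phosphorylates it, and its message had the lowest averaged log2 fold change of the 62 genes. Its levels were 7.18, 13.5 and 43.7 CPM as lowest, median and highest in refed DT mice, against 15.4, 24.3 and 45.7 CPM in fasted DT mice. The 5 refed control mice had 11.8, 9.31, 9.12, 10.2 and 15.5 CPM, against 25.7, 21.1, 30.8, 45.7 and 58.1 CPM in fasted control mice. The control groups did not overlap, whereas the DT groups did, and mouse 13 was well above the next refed DT mouse. The log2 fold change was -0.57 ± 0.36 in DT mice (adjusted p = 0.275) and -1.70 ± 0.41 in control mice (adjusted p = 0.00452). Without mouse 13 the DT value was -0.97 and passed the threshold. The difference between these responses was 1.13 ± 0.54 and was not called (adjusted p = 0.697). Averaged over DT and control mice the log2 fold change was -1.13 ± 0.27 (adjusted p = 0.00234). The other binding protein, Eif4ebp2, had 0.21 and was not called.

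In the eEF1 group, 3 of 5 genes rose (60%) and Eef1a1 fell (20%), against 17.2% and 21.7% of all genes tested. Eef1a1, the tRNA carrier, had 199, 375 and 409 CPM in refed DT mice, against 426, 435 and 457 CPM in fasted DT mice. It had 352, 333, 307, 344 and 322 CPM in refed control mice, against 456, 428, 447, 431 and 479 CPM in fasted control mice. All 11 refed mice lay below all 11 fasted mice, with mouse 13 the lowest. The averaged log2 fold change was -0.38 ± 0.09 (adjusted p = 0.00119). Within DT mice it was -0.33 ± 0.12 (adjusted p = 0.0402), a call that was lost in 7 of the 8 other settings and in 11 of the 22 fits that leave out 1 mouse. Eef1a1, Eif1, Eif4a1 and Eif5a have processed copies elsewhere in the genome. Among rows with an Eif or Eef name marked -ps, the largest held 649 counts (Eif4a-ps4) and 621 counts (Eif3s6-ps2) over all 22 libraries. Copies under other names were not examined.

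Eef1d, part of the exchange factor that recharges eEF1A, rose. It had 51.3, 60.5 and 76.9 CPM in refed DT mice, against 39.9, 46.6 and 51.3 CPM in fasted DT mice. Levels in refed control mice were 54.3, 56.7, 62.8, 58.8 and 68.5 CPM, against 43, 44.1, 41.6, 47.2 and 45.6 CPM in fasted control mice. The groups did not overlap, although the nearest refed and fasted DT mice rounded to the same value, and the averaged log2 fold change was 0.43 ± 0.07 (adjusted p = 3.64e-05). Eef1e1, a component of the aminoacyl-tRNA synthetase complex, rose with 0.84 ± 0.14 (adjusted p = 4.29e-05). Its levels were 6.76, 14.3 and 16.4 CPM in refed DT mice, against 6.31, 7.44 and 9.93 CPM in fasted DT mice. Refed control mice had 13.7, 15.9, 14.1, 11.5 and 12.2 CPM, against 6.56, 8.09, 6.70, 9.42 and 5.62 CPM in fasted control mice. Mouse 13 was again the lowest refed mouse, inside the fasted range, and control mice separated. Eef1b2 had 0.23 and a call (adjusted p = 0.0323) that was lost in 9 of the 22 fits without 1 mouse and in 1 of 7 other settings. Eef1g had 0.14 and was not called.

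Eif5a, which carries hypusine and helps ribosomes over difficult stretches, rose. Its levels were 301, 353 and 413 CPM as lowest, median and highest in refed DT mice, against 196, 233 and 331 CPM in fasted DT mice. In refed control mice they were 307, 387, 371, 341 and 379.5 CPM, against 209, 273, 192, 206 and 198 CPM in fasted control mice. Control mice separated, DT mice overlapped, and the averaged log2 fold change was 0.60 ± 0.09 (adjusted p = 1.80e-05). Its paralog Eif5a2 fell with -0.80 ± 0.18 (adjusted p = 0.00103).

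The translocase Eef2 had 289.8, 334 and 474 CPM in refed DT mice, against 355, 370.5 and 402 CPM in fasted DT mice. It had 318, 300.2, 288, 303 and 300.4 CPM in refed control mice, against 377, 358, 372, 374 and 413 CPM in fasted control mice. Control mice separated, and in DT mice mouse 13 was the highest of all. The log2 fold change was -0.09 ± 0.09 in DT mice (adjusted p = 0.514), -0.33 ± 0.10 in control mice (adjusted p = 0.0199) and -0.21 ± 0.07 on average (adjusted p = 0.0173), and the averaged call was lost in 4 of 7 other settings and in 1 of the 22 fits that leave out 1 mouse. Its inhibitory kinase Eef2k had 6.67, 7.87 and 17.4 CPM in refed DT mice, against 7.31, 12 and 13.7 CPM in fasted DT mice. In refed control mice Eef2k had 13.6, 13.5, 12.5, 12.9 and 11.6 CPM, against 7.47, 9.95, 15.5, 9.66 and 10.5 CPM in fasted control mice. Both pairs of groups overlapped, and the averaged value of 0.07 ± 0.17 was not called (adjusted p = 0.771).

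Of the 5 methyltransferases that modify eEF1A, Eef1akmt1 (0.38) and Eef1akmt4 (0.73) rose and none fell. This is 40% higher, against 17.2% of all genes tested. In DT mice alone 0 of the 5 were called (smallest adjusted p = 0.232, edgeR quasi-likelihood test), where 10.8% of all genes tested were higher. In control mice alone 1 was higher (20%), against 10.9%. The call of Eef1akmt4 was lost in 3 of the 22 fits without 1 mouse. Eef1akmt2, Eef1akmt3 and Eef1aknmt had -0.23, 0.71 and 0.39 and were not called. The scarce genes Eif1ad10 and Eif1ad12, to which no role was given, averaged 0.403 and 0.643 CPM over all libraries. Eif1ad10 had 1.03 ± 0.28, given as a description because the gene was kept through its counts in refed mice.

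Neighbouring genes of the pathway, taken from lists that were likewise drawn up with earlier results known, are read against the same background of 17.2% higher and 21.7% lower in the averaged feeding comparison. Among the kinases, phosphatase subunits and regulators of eIF2α, 1 of 10 was higher (Nck1, 0.48) and 1 was lower (Ppp1r15a, -0.26), and the kinases Eif2ak4 (-0.31) and Eif2ak2 (-0.29) were not called. The Ppp1r15a call was lost in 3 of 7 other settings and without 1 of the 22 mice. The number of calls in this list ranged from 1 to 5 over the alternative fits. Of 28 tested genes of the mTORC1 pathway, 4 were higher (14.3%) and 7 lower (25%), shares near the background. The genes that rose were the GTPases Rheb (0.47), Rraga (0.49) and Rragb (0.28) and the Ragulator subunit Lamtor2 (0.41), which act in its activation. Rragd (-0.34) and Lamtor1 (-0.25), of the same GTPase and Ragulator families, fell. The other genes that fell restrain mTORC1, namely Sesn2 (-1.18), Sesn1 (-0.72), Tsc2 (-0.33), Tsc1 (-0.31) and Ddit4 (-0.33). Further restrainers on the list, Deptor, Sesn3, Ddit4l, Castor1 and Castor2, were not called. The largest log2 fold change of the list, 1.57, belonged to a gene that was not called. The Ddit4 call (adjusted p = 0.0459) was lost in 13 of the 22 fits that leave out 1 mouse and in 5 of 7 other settings, and those of Tsc1, Rragd and Lamtor1 in 1 of 7 other settings each, with Tsc1 also lost without 1 mouse. Sesn2 averaged 49.0 ± 12.9 CPM in refed DT mice and 96.0 ± 13.7 CPM in fasted DT mice, and 39.8 ± 4.64 CPM in refed control mice and 104 ± 15.9 CPM in fasted control mice (SD), and its adjusted p was 4.96e-08.

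Of 20 partners and kinases of the cap complex, 6 were higher (30%) and 4 lower (20%). The scanning helicase Dhx29 (0.93) and the nuclear cap-binding subunit Ncbp2 (0.52) rose, and the eIF4E-binding Angel1 (-0.47) and the poly(A)-binding protein inhibitor Paip2 (-0.46) fell. Among 7 termination and recycling factors, 4 were higher (57.1%) and none lower, namely the release factors Gspt1 (1.14) and Etf1 (0.59), the recycling ATPase Abce1 (0.45) and the rescue factor Pelo (0.55). The Pelo call (adjusted p = 0.0296) was lost in 5 of the 22 fits that leave out 1 mouse and in 2 of 7 other settings. Gspt1 averaged 64.9 ± 14.6 CPM in refed DT mice and 31.3 ± 12.5 CPM in fasted DT mice, and 76.0 ± 11.2 CPM in refed control mice and 32.6 ± 11 CPM in fasted control mice (SD; adjusted p = 8.70e-05). The list of enzymes that modify eIF5A and eEF2, which also holds the selenocysteine factor Eefsec, had 4 of 11 genes higher and 4 lower (36.4% each). The diphthamide pathway genes split, with Dph5 (0.54) and Dph2 (0.49) higher and Dnajc24 (-0.65) and Dph7 (-0.59) lower. Diphthamide on eEF2 is the residue that diphtheria toxin modifies.

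Ablation of the other islet cells left no call among the translation factors. None of the 62 genes passed the threshold for DT against control in fasted mice, in refed mice or on average, where 0.0284%, 0.0356% and 0.206% of all genes tested were called, nor for the difference between the responses to feeding, where 0.00711% were called (edgeR quasi-likelihood test). At an unadjusted p under 0.05 there were 2 genes in fasted mice, 5 in refed mice, 5 on average and 3 for the difference (3.23%, 8.06%, 8.06% and 4.84%). Over all genes tested these shares were 8.33%, 10.03%, 11.9% and 7.14%. limma voom also called 0 in each of these comparisons, and DESeq2 called 0 except for 1 gene, Eif2s3y, on average. The medians of the log2 fold changes were 0.0075 in fasted mice, 0.052 in refed mice and 0.042 on average, against 0.012, -0.0037 and 0.012 over all genes tested. For CPM ranges, 0 of the 62 separated in fasted mice and 1 in refed mice (Eif2s3y, 1.61%), against 1.88% and 0.988% of all genes. No gene of the lists around them was called in these comparisons either.

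The values nearest to a call are given as a description. Eif2s3y had 45.2, 47.4 and 66.3 CPM as lowest, median and highest in refed DT mice, against 34.1, 44.2, 43.5, 31.8 and 37.4 CPM in refed control mice. Fasted DT mice had 47.8, 53.4 and 65.6 CPM, against 25.4, 57.5, 51.4, 35.9 and 34.0 CPM in fasted control mice. Every DT mouse was above every control mouse after refeeding, while the fasted groups overlapped, and the averaged log2 fold change was 0.44 ± 0.12 (adjusted p = 0.130). Its X-linked copy Eif2s3x had -0.09 (adjusted p = 0.837). Eif3a had 0.24 on average (adjusted p = 0.293).

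In refed mice the smallest p belonged to Eif5a2, with 3.11, 3.93 and 8.74 CPM in DT mice, against 9.21, 7.36, 8.98, 8.86 and 7.25 CPM in control mice. All but a single refed DT mouse lay below the refed control range, and the log2 fold change was -0.77 ± 0.25 (adjusted p = 0.268). Eef2 had 0.22 in the same comparison (adjusted p = 0.441). In fasted mice the smallest p belonged to Eef1akmt1, with 13.3, 15.6 and 16.5 CPM in DT mice, against 9.35, 13.9, 12.6, 12.2 and 9.83 CPM in control mice. These groups overlapped between 13.3 and 13.9 CPM, and the log2 fold change was 0.40 ± 0.12 (adjusted p = 0.317). The scaffold Eif4g1 had 0.27 in fasted mice (adjusted p = 0.619).

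**Figure D4:**
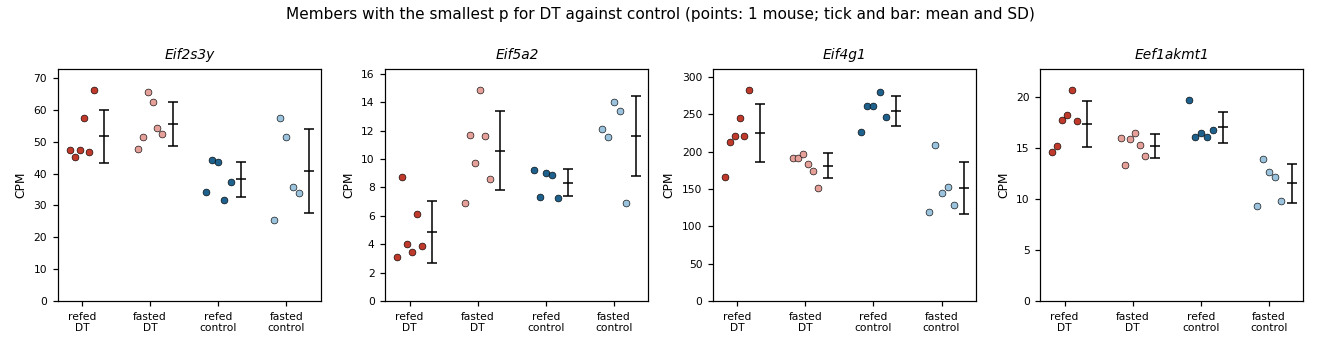
CPM of 4 of the genes that were among the 3 smallest p values in a comparison of DT with control mice. Eef2 and Eif3a, also among them, are not shown. Each point is 1 mouse, and a tick and bar give the mean and SD of each group. For Eif2s3y, refed DT mice lie between 45.2 and 66.3 CPM, above refed control mice at 31.8 to 44.2 CPM, and the fasted groups overlap. For the other genes the DT and control groups overlap in both feeding states.

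The difference between the feeding responses of DT and control mice had its smallest p in Eif4g1. Its log2 fold change was 0.31 ± 0.13 in DT mice (adjusted p = 0.0760) and 0.76 ± 0.14 in control mice (adjusted p = 0.000435), and the difference of -0.45 ± 0.19 was not called (adjusted p = 0.643). Refed DT mice had 166, 222 and 283 CPM, against 152, 187 and 197 CPM in fasted DT mice. Refed control mice had 226, 261, 262, 280.1 and 247 CPM, against 120, 209, 144, 153 and 129 CPM in fasted control mice. The control groups separated and the DT groups overlapped. Eef1akmt1 had a difference of -0.37 (adjusted p = 0.690).

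**Figure D5:**
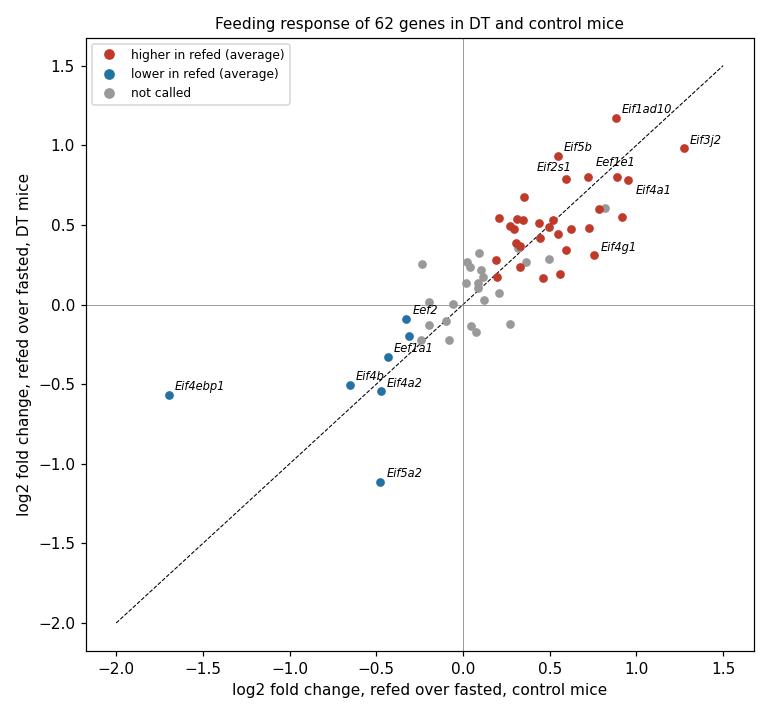
Log2 fold change of each of the 62 genes in refed over fasted mice, with DT mice on the vertical axis and control mice on the horizontal axis, coloured by the averaged call. Points on the dashed line have equal values in both, and Eif4ebp1 (-0.57 in DT and -1.70 in control mice) and Eif5a2 (-1.11 in DT and -0.48 in control mice) lie farthest from it among the genes lower after refeeding.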

How the data were processed

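RNA from sorted β-cells of 22 male mice was sequenced, 1 library per mouse. Per the labels' protocols, column-purified RNA was amplified by SMARTer chemistry for low input and sequenced as single-end Nextera XT libraries on a HiSeq4000. The authors deposited raw read counts per gene symbol. The submitters' processing notes name the build GRCm38.p6 and, as tools, DESeq2 1.28.1, HTSeq 0.9.1 and STAR 2.7.2b. Strand setting, annotation release and the handling of reads shared between copies are not given in the sources used here. Reads carried no molecular identifiers.

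The whole table was fitted in R 4.3.3 with edgeR 4.0.16 (filterByExpr by group, TMM, a coefficient for each of the 4 groups, robust quasi-likelihood F tests, 7 contrasts), leaving 14064 genes for the Benjamini-Hochberg adjustment at a threshold of 0.05. Totals of 16584117 to 24988880 counts per library limit the precision of scarce genes. Each standard error follows from the fold change and its F value. CPM give the levels, and levels per kb use the longest protein-coding transcript of GENCODE. Promoters came from RefSeq, and 46 of 62 genes matched by symbol. The script was tested on simulated data. Alternatives were RLE scaling, no filter, a table without Ins1 and Ins2, an acinar covariate, a fit of the compared groups alone, limma voom (limma 3.58.1), DESeq2 1.42.0, and fits without single mice or without refed DT mice 13 and 20.

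The genes, their roles, the pathway lists and the tests were chosen with earlier results of these data known, so the lists give no independent support. All 62 genes could be named. Values per mouse (for the DT groups of 6, the lowest, median and highest) are given for the 10 genes with the smallest p in the averaged feeding comparison, for the 3 smallest p in the DT comparisons in part, and for Eif4ebp1, Eef1a1, Eef2, Eif2s1, Eif5a, Eif4e and Eef2k. Up to 4 genes of each pathway list with the smallest p are named, and every called gene of the mTORC1 list, the further ones after their values were seen. Some restrainers on that list that were not called are named without values.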

Additional observations from a re-analysis of the deposited data

Results flagged for a closer look

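Of 80 groups of 5 or 6 mice, formed by the genes described per mouse, 12 held a sample far from the others by Dixon's criterion, where chance gives about 5%. Refed DT mouse 13 was that sample in 8 of them, and it is the library with the largest share of insulin counts. Its levels were high for Eif1 (796 CPM, others 444 to 559), Eef2 (474 CPM, others 289.8 to 355), Eif3a (292 CPM, others 141 to 196) and Eif4ebp1 (43.7 CPM, others 7.18 to 20.6). They were low for Eef1a1 (199 CPM, others 353 to 409), Eif3d (45.6 CPM, others 58.9 to 63.6), Eif4b (40.8 CPM, others 55.8 to 63.7) and Eif4e (43.6 CPM, others 74.3 to 85.2). Their part in the results was measured by leaving this mouse out.

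The other far samples were single values. Refed control mouse 12 had 19.7 CPM of Eef1akmt1, with the others at 16.1 to 16.8, and 72.5 CPM of Eif4e, with the others at 83.0 to 85.6. Fasted control mouse 3 had 30.6 CPM of Eif3d, with the others at 38.0 to 39.9. Fasted control mouse 2 had 273 CPM of Eif5a, with the others at 192 to 209.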

How the results depend on the processing

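The number of translation factors called for refed against fasted mice stayed within 1.5 times its value under every alternative. Over the fits that leave out 1 mouse it ran from 23 to 39 in DT mice and from 21 to 32 in control mice. In the averaged comparison it ran from 35 to 43. Without refed DT mice 13 and 20 it was 36 in DT mice, 31 in control mice and 43 on average. Averaged calls over all genes moved too, from 5470 in the main fit to 6286 without mouse 13 and 6245 without mice 13 and 20. Of the 38 averaged calls, 33 were kept in every fit that leaves out 1 mouse and in every other alternative. None reversed, and the 5 lost in some were Eef1akmt4, Eef1b2, Eef2, Eif2b2 and Eif3e. Counts for DT against control and for the difference between the feeding responses stayed at 0 in all fits that leave out 1 mouse, and DESeq2 gave 1 for the averaged DT comparison (Eif2s3y). The averaged feeding value of Eef2k, not called, ran from -0.03 to 0.17 when mice were left out and was -0.033 without refed DT mouse 16 and -0.0016 without refed DT mouse 20. Eif4ebp1 in DT mice passed the threshold without mouse 13 (-0.97) and without mice 13 and 20 (-1.19). No paired analysis was possible because each mouse number occurs once. No scaling moved the median of all genes by 0.1 on the log2 scale.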
